A study of Mus musculus with 2 samples.

Results

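RNAs that mark brown and white fat cells were followed through single-cell libraries of the mouse aortic arch. The 10 genes of 31053 in the count tables were Ucp1, Cidea, Cox8b, Cox7a1, Elovl3, Adipoq, Plin1, Cidec, Scd1 and Thrsp, taken as the rows with those symbols. They were selected on their RNA levels by cell type and diet in these same 2 libraries, so their levels and diet differences are given as a description, with no test. Both libraries came from male Apoe-/- C57BL/6 mice aged 16 weeks, which lack apolipoprotein E and so accumulate plasma cholesterol. One group received a normal chow diet (ND) and the other a high-fat, high-cholesterol Western diet (HFD) for about 12 weeks. Cells of 2 aortas were pooled into 1 library per diet, so there was no replicate, and every interval below covers counting error only. Diet, animal pool and library preparation cannot be told apart.

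The ND table held 10234 barcodes, of which 5416 passed the filter, and the HFD table held 14225, of which 2739 passed. These matched the cell numbers stated for the study. Kept barcodes held 27137322 unique molecular identifiers (UMIs, each 1 captured RNA molecule) in ND and 17191279 in HFD, with medians of 3732.5 and 5336 per barcode. The study states more reads (as a median) and more transcripts per cell in the control group than in the HFD group, the opposite order. The libraries shared 39 barcode sequences, of which 1 passed in both. A level is given in CPM, the UMIs of a gene per 1e6 UMIs of the same group of barcodes.

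White adipocytes store triglyceride in a single large droplet and secrete adipokines, whereas brown adipocytes hold many small droplets and burn fatty acids for heat. The thoracic aorta lies in perivascular fat that is brown-like in rodents, and capillaries run through it. Among the members, Ucp1 uncouples the mitochondrial proton gradient to make heat. Cidea is a droplet protein of brown fat, Cox8b and Cox7a1 are subunits of respiratory complex IV used in brown fat and muscle, and Elovl3 elongates fatty acids in brown fat. Adipoq encodes adiponectin, Plin1 coats the lipid droplet and Cidec helps droplets fuse. Scd1 desaturates fatty acids, and Thrsp is a thyroid hormone responsive protein of lipogenesis.

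By the GENCODE M21 annotation of GRCm38 (mm10), all members are protein-coding. Ucp1 lies at chr8:83290352-83298452 on the plus strand and Scd1 at chr19:44394455-44407879 on the minus strand. Cox7a1, Cox8b, Plin1 and Thrsp all lie on chromosome 7. RefSeq promoter windows of 300 bases (GRCm38.p6) matched 7 of the 10 members. Those of Ucp1, Cox8b and Cox7a1 are shown because these genes were higher together in HFD endothelial barcodes, and that of Thrsp because it was lower there. Capitals mark 3 motifs on either strand, and no matches overlapped. They were the TATA box letters TATAAA, the letters CCAAT of the box of that name, and the nuclear receptor half-site AGGTCA.
Ucp1 (chr8:83290098-83290397, plus strand): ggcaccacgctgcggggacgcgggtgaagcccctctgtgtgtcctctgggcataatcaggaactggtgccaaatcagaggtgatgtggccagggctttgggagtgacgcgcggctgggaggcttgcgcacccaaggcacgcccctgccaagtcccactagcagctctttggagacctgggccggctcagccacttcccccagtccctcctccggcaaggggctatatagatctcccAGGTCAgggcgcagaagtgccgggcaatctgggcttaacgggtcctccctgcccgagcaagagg
Cox8b (chr7:140900397-140900696, minus strand): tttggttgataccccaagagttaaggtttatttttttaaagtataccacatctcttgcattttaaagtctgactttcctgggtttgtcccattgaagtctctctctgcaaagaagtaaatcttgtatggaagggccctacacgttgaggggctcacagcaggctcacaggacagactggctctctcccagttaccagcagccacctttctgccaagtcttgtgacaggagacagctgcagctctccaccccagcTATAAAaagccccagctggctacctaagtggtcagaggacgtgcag
Cox7a1 (chr7:30183921-30184220, plus strand): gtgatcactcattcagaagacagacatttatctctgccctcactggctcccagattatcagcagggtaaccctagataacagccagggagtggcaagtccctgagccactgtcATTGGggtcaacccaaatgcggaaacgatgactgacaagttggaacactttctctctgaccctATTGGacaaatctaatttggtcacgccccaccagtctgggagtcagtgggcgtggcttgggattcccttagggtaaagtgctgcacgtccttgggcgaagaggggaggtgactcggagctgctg
Thrsp (chr7:97417501-97417800, minus strand): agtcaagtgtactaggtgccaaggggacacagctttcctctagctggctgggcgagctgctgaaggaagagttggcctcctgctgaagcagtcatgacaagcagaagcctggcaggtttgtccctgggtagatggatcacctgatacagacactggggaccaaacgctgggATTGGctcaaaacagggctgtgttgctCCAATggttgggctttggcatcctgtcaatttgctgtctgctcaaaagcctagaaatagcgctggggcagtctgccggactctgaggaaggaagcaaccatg

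AGGTCA or its reverse occurred in 16.3% of the 32851 promoter windows searched, TATAAA in 13.6% and CCAAT in 37.4%. The Ucp1 window held 1 AGGTCA match, the Cox8b window 1 TATAAA match, and the Cox7a1 and Thrsp windows held CCAAT matches. The motif matches differed among these genes that were higher together. Plin1, also at least 2-fold higher in HFD endothelial barcodes but from 19 and 25 UMIs, had a window with 0 matches, which is not shown.

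Barcodes were assigned to a cell class when at least 3 distinct markers of that class had a UMI and no other class reached 3. The adipocyte markers (among them Adig, Lipe, Retn, Mrap, Gpd1 and Pck1) included none of the 10 members, so member levels were not fixed by the gate. The gate took 21 barcodes in ND and 8 in HFD, with median UMIs of 16745 and 13141.5. The genes leading it, other than its markers, were Car3, Cfd, Scd1, Fasn and Cyp2e1. Car3 and Cfd are abundant in adipocytes and Fasn is the fatty acid synthase, so the leading genes bore out the gate's name. A further 71 ND and 78 HFD barcodes reached the adipocyte gate together with another class, most often the endothelial one (64 and 74). Lipe, 1 of the markers, had a UMI in 22.7% of ND and 41.8% of HFD endothelial barcodes, whereas Adig had one in 1.45% and 1.67%.

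The 10 members made up 42606 CPM (95% interval 41908 to 43313) of the ND adipocyte-gated barcodes and 28786 CPM (27727 to 29875) of the HFD ones. With a mitochondrial limit of 20% in place of 30% the order turned, at 36324 CPM in ND and 43952 CPM in HFD. These few barcodes held 49.7% of all member UMIs kept in ND and 39.6% in HFD. With the mixed barcodes included, the shares were 81.5% and 51.1%. Scd1 alone made up 76.8% of the member UMIs in ND adipocyte-gated barcodes and 60.2% in HFD.

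**Figure D1:**
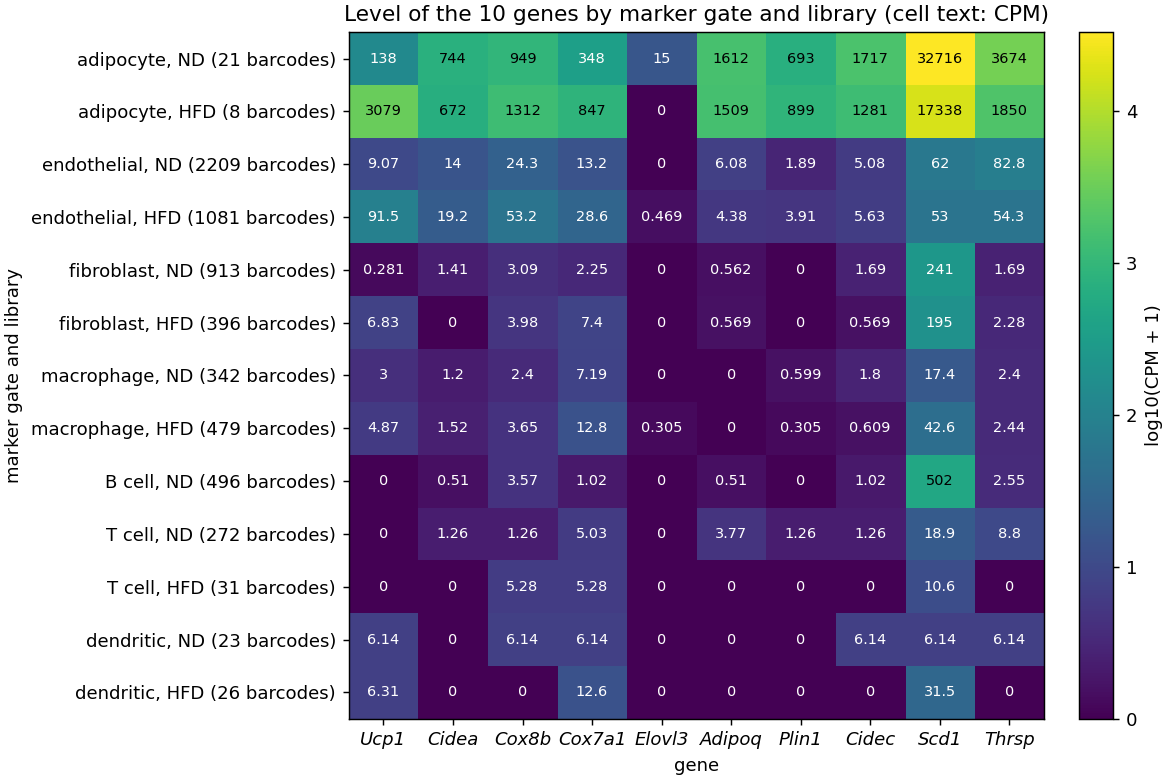
Level of each of the 10 genes (columns) in each marker gate and library (rows), coloured by log10(CPM + 1) with the CPM written in each cell. Adipocyte-gated rows are highest for all members detected in them, endothelial rows are at 24.3 and 53.2 CPM for Cox8b and 82.8 and 54.3 CPM for Thrsp, and Scd1 is also high in B cells and fibroblasts.

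Ucp1 and Cox7a1 were detected in some adipocyte-gated barcodes and not in others. Ucp1 had a UMI in 6 of 21 ND barcodes, with a median of 0 and a highest of 18 UMIs, and in 5 of 8 HFD barcodes, with a median of 12 and a highest of 176. Cox7a1 had a UMI in 6 of the 6 ND barcodes with Ucp1 and in 4 of the 15 without, and in HFD in 4 of 5 with Ucp1 and 0 of 3 without. The UMI numbers of both genes did not rank alike, since the ND barcode with the most Ucp1 (18 UMIs) held 1 Cox7a1 UMI and an ND barcode without Ucp1 held 10. Summed over the gate, Ucp1 was at 138 CPM in ND and 3079 CPM in HFD, a log2 ratio of 4.48 (4.03 to 4.96). One HFD barcode held 59.1% of these UMIs, and without it the HFD level was 1479 CPM and the log2 ratio 3.42. All 298 HFD Ucp1 UMIs lay in barcodes above 20% mitochondrial UMIs. With that limit 10 ND and 2 HFD barcodes were left, holding 23 Ucp1 UMIs (160 CPM) and 0 (up to 124 CPM). The higher HFD level thus rested on 5 of the 6 HFD barcodes between 20% and 30%. Cells of 1 pool are not replicates, so this ratio compares 21 barcodes with 8.

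Cox7a1 was at 348 CPM in ND and 847 CPM in HFD adipocyte-gated barcodes, Cox8b at 949 and 1312, and Cidea at 744 and 672. The Cidea levels overlapped within counting error (log2 ratio -0.15, -0.57 to 0.25). Elovl3 had 5 UMIs in ND, in 2 barcodes, and 0 in HFD. Cox8b was detected in 20 of 21 ND and 8 of 8 HFD barcodes. In HFD it was at 822 to 5311 CPM in barcodes with Ucp1 and 188 to 1161 CPM in those without, and in ND at 68.7 to 2869 and 0 to 2156 CPM, so the ranges overlapped in both libraries. One HFD barcode held 52.4% of the Cox7a1 UMIs, and without it the HFD level was 496 CPM and the log2 ratio 0.51 (-0.05 to 1.05), under 2-fold. With the limit of 20%, HFD held 0 Cox7a1 and 0 Cidea UMIs against 43 and 122 in ND, and Cox8b turned to 813 CPM in ND and 248 CPM in HFD.

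Among the general adipocyte genes, Adipoq had 10 to 56 UMIs in every ND barcode (median 27) and 0 to 28 in HFD (median 20.5). Its level was 1612 CPM in ND and 1509 CPM in HFD, and the 95% interval of the log2 ratio, -0.37 to 0.17, held 0. Plin1 was at 693 and 899 CPM, and Cidec at 1717 and 1281 CPM. The diet groups overlapped barcode by barcode for each of these genes.

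Scd1 and Thrsp were lower in HFD adipocyte-gated barcodes at the limit of 30% mitochondrial UMIs and higher at 20%. Scd1 ranged from 1 to 1314 UMIs per ND barcode (median 415) and from 5 to 807 per HFD barcode (median 69). The summed Scd1 level was 32716 CPM in ND and 17338 CPM in HFD, a log2 ratio of -0.92 (-0.99 to -0.84). Thrsp was at 3674 and 1850 CPM, a log2 ratio of -0.99 (-1.22 to -0.76). A single HFD barcode held 48.1% of the Scd1 UMIs and 45.8% of the Thrsp UMIs, and without it the HFD levels were 10468 and 1166 CPM. At 20% the same barcode was 1 of the 2 left in HFD, Scd1 was at 26077 CPM in ND and 34047 in HFD (log2 ratio 0.38, 0.27 to 0.49) and Thrsp at 3240 and 4622 CPM (0.51, 0.20 to 0.81).

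**Figure D2:**
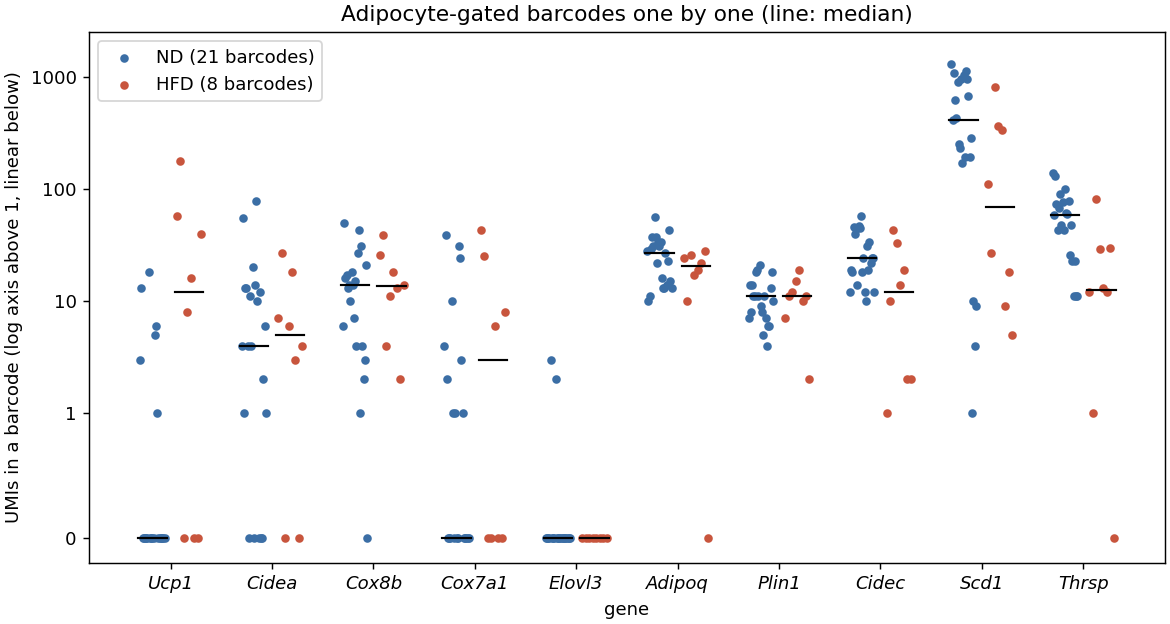
UMIs of each gene (log axis above 1, linear below) in each adipocyte-gated barcode, 21 from ND and 8 from HFD, with the median as a line. Ucp1 and Cox7a1 are at 0 in many barcodes and reach 176 and 43 UMIs in others, whereas Adipoq is at 10 or more UMIs in all ND barcodes and in 7 of 8 HFD barcodes.

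Genes of the wider pathways were counted in the same barcodes. Among 2565 genes with at least 20 UMIs over both libraries, 7.6% were at least 2-fold higher in HFD and 12% at least 2-fold lower. Of the members, 2 of 9 that passed this UMI minimum were higher (Ucp1 and Cox7a1) and 0 were lower. Cox7a1 passed only with its highest HFD barcode, and at a mitochondrial limit of 20% 0 of 9 were higher and 4 lower, beside 10.2% and 17.8% of 1132 genes. In the brown fat list, 6 of 7 genes with enough UMIs were higher and 0 lower, with a median log2 ratio of 1.37 against 0.03 over all genes. At 20%, 2 of its genes had enough UMIs and both were lower. Ppargc1a, the coactivator that drives mitochondrial biogenesis, was at 66.0 CPM in ND and 692 in HFD, and Pdk4, a brake on pyruvate oxidation, at 408 and 909. Ebf2, a transcription factor of brown fat identity, was at 72.0 and 155 CPM. Slc36a2, a gate marker, was at 606 and 393 CPM and did not pass the fold. In the lipogenesis list, 0 of 14 genes were higher and 6 lower, and at 20% 0 of 13 and 3. Fasn was at 6256 CPM in ND and 2883 in HFD, Acly, which makes cytosolic acetyl-CoA, at 2233 and 351, and Me1, which makes NADPH, at 1480 and 610. Pck1, also a gate marker, was at 1819 and 2159 CPM.

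Among white fat and adipokine genes, 1 of 8 was higher and 2 lower, with Cfd (adipsin) at 18992 CPM in ND and 6127 in HFD, Car3 at 13424 and 13763, Retn at 1186 and 713, and Adig at 696 and 723. Among lipolysis and lipid droplet genes, 2 of 14 were higher and 0 lower. Fabp4, a fatty acid carrier, was at 14594 and 21605 CPM, and Lpl, the lipoprotein lipase, at 4130 and 6623. Pnpla2, the first triglyceride lipase, was at 1894 and 2108 CPM, and Acsl1, which activates fatty acids, at 1486 and 3410. Of the paralogs of the members, 1 of 10 was higher and 2 lower. Cox8a was at 3167 and 3151 CPM, Cox7a2 at 1087 and 1354, Plin4 at 723 and 734, and Scd2 at 546 and 51.7. The widely used complex IV paralogs thus lay close together in the 2 libraries where Ucp1 and Cox7a1 differed.

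Over all kept barcodes Ucp1 was the member most raised in HFD. It had 306 UMIs (11.3 CPM) in ND and 1244 UMIs (72.4 CPM) in HFD, 6.42-fold higher (5.66 to 7.30). Scd1 went the other way, from 20702 UMIs (763 CPM) to 3043 (177 CPM), 4.31-fold lower in HFD. Of 9 members with at least 20 UMIs, 1 was at least 2-fold higher and 4 were at least 2-fold lower (Adipoq, Cidec, Scd1 and Thrsp). Over all 15101 such genes, 2.68% were higher and 12.4% lower, and the median log2 ratio was -0.18. The levels of Adipoq were 40.1 and 12.9 CPM, of Cidec 36.3 and 12.04 CPM, and of Thrsp 113 and 38.0 CPM. In such sums, fewer adipocytes and less RNA per adipocyte cannot be told apart.

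The picture changed once barcodes that reached the adipocyte gate, alone or with another class, were left out. Of 9 members, 4 were then at least 2-fold higher in HFD (Ucp1, Cox8b, Cox7a1 and Plin1) and 0 lower, beside 2.75% and 12.1% of 14985 genes. Ucp1 was at 4.77 CPM in ND and 46.8 CPM in HFD, and Cox8b at 12.3 and 29.2 CPM. Cidea turned from a log2 ratio of -0.51 to 0.52, and Plin1 from -0.98 to 1.07. The log2 ratio of Scd1 went from -2.11 to -0.84 and that of Cidec from -1.59 to -0.03.

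**Figure D3:**
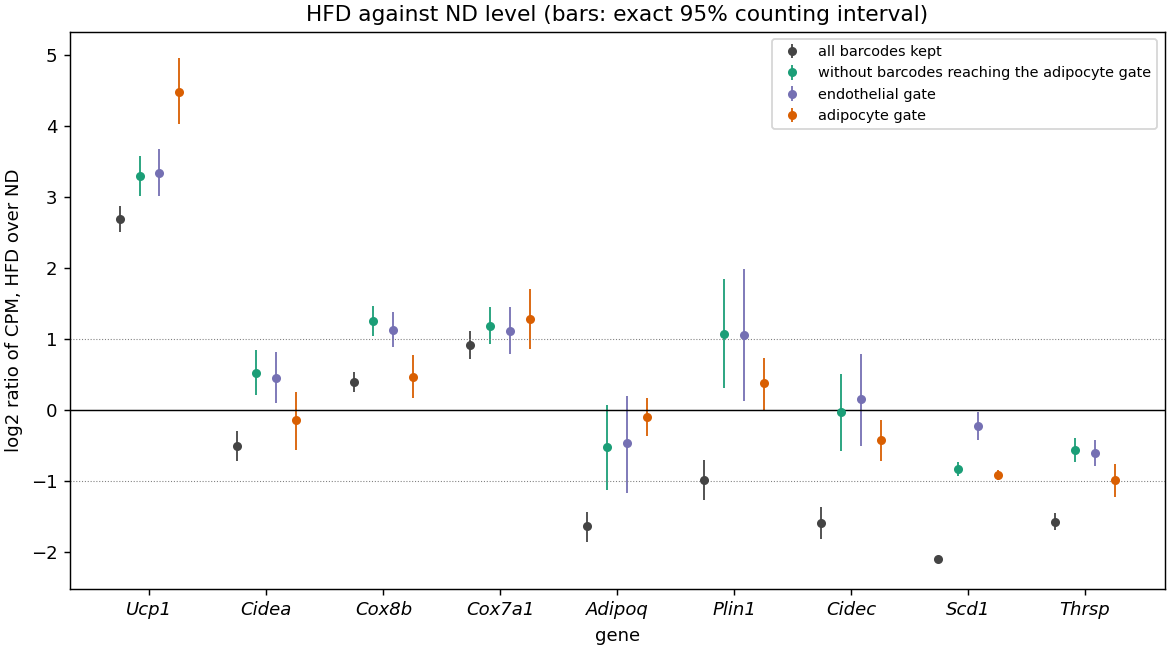
Log2 ratio of CPM, HFD over ND, for the 9 members with enough UMIs, over all kept barcodes, without those reaching the adipocyte gate, in the endothelial gate and in the adipocyte gate. Points are ratios of 1 library per diet, bars are exact 95% counting intervals, and dotted lines mark 2-fold. Ucp1 is above 2-fold in all sets shown, while Cidea and Plin1 change sign with the barcodes used.

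Endothelial-gated barcodes (2209 in ND, 1081 in HFD) held more brown fat UMIs than any other unmixed class outside the adipocyte gate. Their leading genes were Ccl21a, Aqp1, Tcim, Fabp4 and Cd300lg. Ucp1 was at 9.07 CPM (7.30 to 11.1) in ND and 91.5 CPM (84.2 to 99.2) in HFD endothelial barcodes, a log2 ratio of 3.34 (3.01 to 3.67). The UMIs were spread thinly, with at most 3 in an ND barcode and 12 in an HFD barcode. Cox8b was at 24.3 and 53.2 CPM (log2 ratio 1.13, 0.89 to 1.37) and Cox7a1 at 13.2 and 28.6 CPM (1.11, 0.78 to 1.44). Plin1 had only 19 and 25 UMIs, at 1.89 and 3.91 CPM.

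Of 9 members, 4 were at least 2-fold higher and 0 lower in HFD endothelial barcodes, beside 2.32% and 7.41% of 11985 genes. The lipogenic Thrsp was at 82.8 CPM in ND and 54.3 in HFD (log2 ratio -0.61, -0.79 to -0.43). Scd1 was at 62.0 and 53.0 CPM, Cidea at 14.05 and 19.2, Adipoq at 6.08 and 4.38, and Cidec at 5.08 and 5.63. Without endothelial barcodes that had any adipocyte marker UMI, the log2 ratio of Ucp1 was 2.80 and that of Cox8b 0.59, under 2-fold, a setting chosen after seeing the data. Over the 11 alternative settings of this gate, the lowest log2 ratio was 0.55 for Cox7a1 and 0.63 for Plin1, also under 2-fold. Of the 4 members, Ucp1 alone stayed above 2-fold in all of them.

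In the brown fat list, 4 of 12 genes were at least 2-fold higher in HFD endothelial barcodes and 0 lower. These were Fabp3, a fatty acid carrier of oxidative tissue, at 9.36 and 28.6 CPM, and Ppargc1a, Dio2 and Ebf2, each below 3 CPM in both libraries. In the other lists of this gate, 0 of 13 lipogenesis, 0 of 13 lipolysis and 0 of 9 white fat genes were higher. The lower genes were G0s2 among lipolysis genes and Retn and Cfd among white fat genes. No paralog of 15 with enough UMIs passed 2-fold, and Ucp2, the paralog widely used in other cells, was at 104 and 205 CPM.

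Fibroblasts, macrophages and lymphocytes held little Ucp1. Fibroblast-gated barcodes (913 in ND, 396 in HFD) had 1 and 12 Ucp1 UMIs, at 0.28 and 6.83 CPM. Macrophage-gated barcodes (342 and 479) had 5 and 16, at 2.996 and 4.87 CPM. T cells (272 and 31) had 0 Ucp1 UMIs in both, which allows up to 3.77 CPM in ND and 15.8 CPM in HFD. The 496 ND B cells had 0 as well, which allows up to 1.53 CPM. Cox7a1 was less confined, at 7.19 CPM (12 UMIs) in ND and 12.8 CPM (42 UMIs) in HFD macrophages, which held 8.7% of the Cox7a1 UMIs kept in HFD. Few members had 20 UMIs there. In fibroblasts 1 of 2 (Cox7a1, 8 and 13 UMIs) was at least 2-fold higher in HFD and 0 lower, beside 2.18% and 8.06% of 10604 genes. In macrophages 1 of 3 (Scd1) was higher and 0 lower, beside 4.37% and 7.03% of 9303 genes. In mixed barcodes 1 of 9 was higher (Ucp1) and 5 were lower, beside 2.59% and 8.7% of 12943 genes. The leading genes of the fibroblast gate were Gsn, Serpinf1, Col14a1, Ogn and Mfap5, those of the macrophage gate Cd5l, Ccl8, Gpnmb, Pf4 and F13a1, those of the T cell gate Ccl5, Lat, Ms4a4b, Cd28 and Tcf7, and those of the B cell gate Ly6d, Bank1, Iglc2, H2-DMb2 and Pou2af1.

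Since depth differed between libraries, each barcode was thinned to 1000 UMIs to compare shares. Ucp1 was then found in 1.001% of ND and 8.05% of HFD endothelial barcodes, 0.59% and 0.63% of macrophages, and 0% and 0.76% of fibroblasts. The unthinned endothelial shares were 3.76% and 30.7%. Thrsp, at 6.92% and 5.18% of thinned endothelial barcodes, was in 0.74% of ND T cells. By point value, the Ucp1, Cox8b and Thrsp shares in endothelial barcodes lay above those of fibroblasts, macrophages and T cells. The ND Ucp1 intervals overlapped, at 0.63 to 1.51% in endothelial barcodes and 0.07 to 2.11% in macrophages. The 31 HFD T cells were too few to compare, with Ucp1 in 0% (up to 11.2%) and Cox8b in 3.23% (0.08 to 16.7%), against 5.46% of endothelial barcodes for Cox8b.

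Endothelial barcodes were split by 2 or more of 4 capillary markers (Gpihbp1, Cd36, Car4, Rbp7) against 2 or more of 4 large-vessel luminal markers (Cytl1, Vcam1, Vwf, Fbln5), a split chosen after seeing the data. Capillary-marked barcodes numbered 1919 in ND and 964 in HFD, and luminal-marked ones 188 and 74. Median UMIs were 3209 and 5179 in the former and 4902.5 and 6608.5 in the latter, so the luminal-marked barcodes were the deeper ones. Of 9 members, 3 were at least 2-fold higher in HFD capillary-marked barcodes and 0 lower, beside 2.8% and 7.66% of 11249 genes. Ucp1 was at 10.8 CPM in ND capillary-marked and 0.79 CPM in luminal-marked barcodes, the latter from 1 UMI. In HFD the levels were 103 and 3.24 CPM, a ratio of 31.6 (8.71 to 262) with 2 UMIs on the luminal side.

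The same order held for other members. Thrsp was at 97.8 CPM in ND capillary-marked and 1.59 CPM in luminal-marked barcodes, and at 61.2 and 4.86 CPM in HFD. Cox8b was at 28.8 and 2.38 CPM in ND and at 61.1 and 3.24 CPM in HFD. Cidea had 139 UMIs and 0 UMIs in ND, at least 7.08-fold higher with 3 UMIs taken for the 0. Scd1 went the other way, at 59.3 and 84.2 CPM in ND (ratio 0.70, 0.57 to 0.88) and 52.2 and 64.9 CPM in HFD (0.80, 0.58 to 1.15). With 3 markers of one set and none of the other required, the Ucp1 ratios were 9.56 in ND and 26.7 in HFD.

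**Figure D4:**
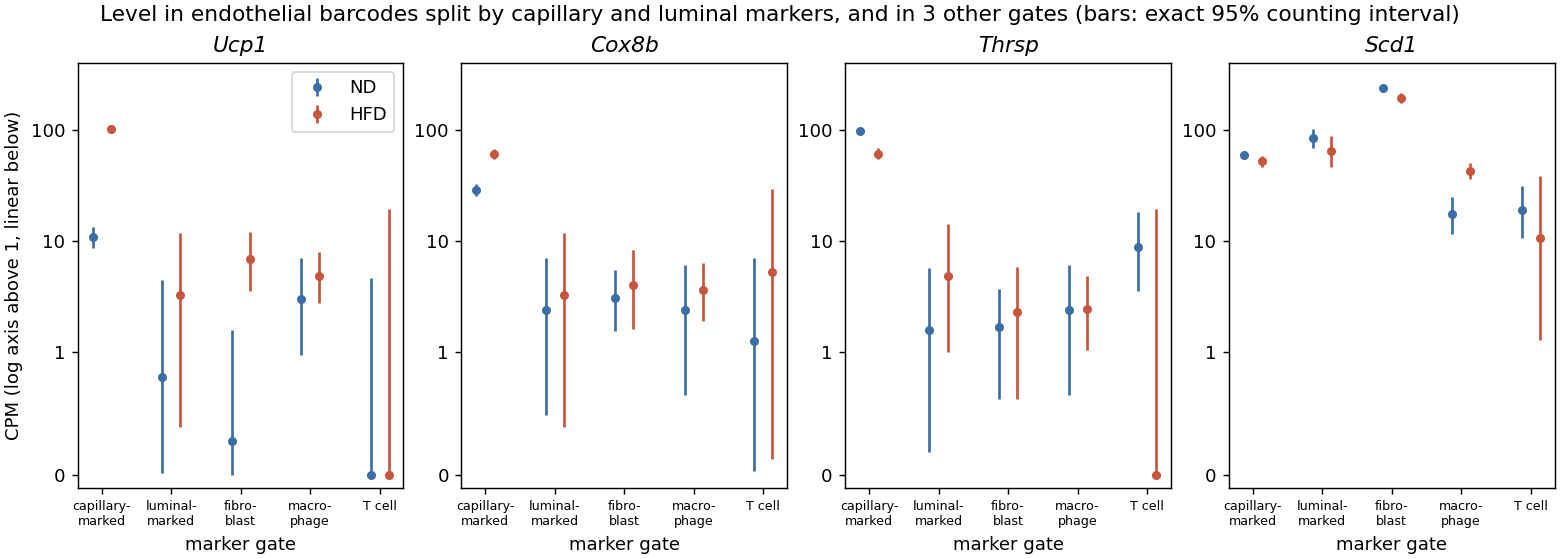
CPM of Ucp1, Cox8b, Thrsp and Scd1 (log axis above 1, linear below) in capillary-marked and luminal-marked endothelial barcodes, fibroblasts, macrophages and T cells of each library, with exact 95% counting intervals. Ucp1, Cox8b and Thrsp are highest in capillary-marked barcodes, and Scd1 is highest in fibroblasts.

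Within capillary-marked barcodes the Ucp1 level did not follow depth in ND. In 4 depth bins of equal barcode number, from shallowest to deepest, it was 10.9, 10.8, 11.2 and 10.6 CPM. In HFD the bins were at 120, 107, 109 and 88.3 CPM. UMIs per barcode went up with depth, from 0.0208 to 0.0898 in ND and from 0.432 to 0.772 in HFD. The diet difference was present in every depth bin.

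RNAs of other sources that are not made by these classes were set beside the members. Scgb1a1, a secretory protein of airway club cells, which were gated in ND only, was at 149 CPM in ND capillary-marked, 103 in luminal-marked, 115 in fibroblast, 147 in macrophage and 218 in T cell barcodes. It was at 36.0 CPM in ND adipocyte-gated barcodes and had 0 UMIs in HFD endothelial ones. Haemoglobin RNA was less even: Hbb-bs was at 3899 CPM in ND capillary-marked and 61.2 in luminal-marked barcodes, and at 23095 and 2516 CPM in HFD. In T cells Hbb-bs was at 1906 CPM in ND and 34053 CPM in HFD, where Ucp1 had 0 UMIs. The immunoglobulin chain Igkc was at 231 and 294 CPM in ND capillary-marked and luminal-marked barcodes, and Hba-a2 at 914 and 5268 CPM in ND and HFD endothelial barcodes. The part of free RNA from fat around the aorta in the endothelial levels was not tested.

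The ratios among members differed between classes. Adipocyte-gated over endothelial levels were 15.2 for Ucp1, 39.0 for Cox8b, 44.4 for Thrsp, 265 for Adipoq and 528 for Scd1 in ND. In HFD they were 33.6, 24.7, 34.1, 344 and 327. Adipoq and Scd1 were therefore far rarer in endothelial barcodes, relative to Ucp1, than in the sum of the adipocyte-gated barcodes kept. Single adipocyte-gated barcodes varied around that sum. The HFD one with the most Ucp1 held 176 Ucp1, 10 Adipoq and 27 Scd1 UMIs, and another held 0, 26 and 807. All HFD endothelial barcodes together held 585, 28 and 339. The HFD adipocyte-gated barcodes removed by the filter lay outside these ratios. With no mitochondrial limit, 26 HFD barcodes of that gate held 821 Ucp1, 198 Adipoq and 2264 Scd1 UMIs. Single removed ones held 79, 1 and 5, or 32, 4 and 261. The order of these ratios thus holds only for the barcodes kept.

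Brown fat genes occurred in the same HFD endothelial barcodes. Of 964 HFD capillary-marked barcodes, 640 had 0 Ucp1 UMIs, 199 had 1, 72 had 2 and 53 had 3 or more, whereas in ND 1838 of 1919 had 0 and 2 had 3 or more. In barcodes with 0, 1 or more, and 3 or more Ucp1 UMIs, Cox8b was at 33.6, 110 and 201 CPM. Cidea was at 9.59, 43.0 and 92.5 CPM, and Cox7a1 at 19.5, 55.7 and 132 CPM. Thrsp was at 58.7, 65.8 and 66.1 CPM over the same barcodes, Scd1 at 47.7, 60.3 and 60.8, and Adipoq at 4.51, 5.57 and 5.29. Cox8b, Cidea and Cox7a1 climbed with Ucp1, and Thrsp, Scd1 and Adipoq overlapped within counting error.

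Median depth went from 5070.5 UMIs without Ucp1 to 6184 with 3 or more, and the share of barcodes with any adipocyte marker UMI from 55.2% to 75.5%. The genes leading the 53 barcodes over those without Ucp1, named after their values were seen, included Fabp3 (151 against 15.8 CPM), Rgs5, a pericyte gene (553 against 122 CPM), Cdo1 (55.5 against 9.03 CPM) and Pck1 (66.1 against 14.95 CPM). In ND, 81 capillary-marked barcodes had Ucp1, and Cox8b was at 27.3 CPM without and 51.4 CPM with it. Cidea was at 16.8 and 17.8 CPM there, from few UMIs in the 81 barcodes, so a climb with Ucp1 in ND could not be judged. The part of adipocyte or pericyte RNA in these barcodes was not tested.

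**Figure D5:**
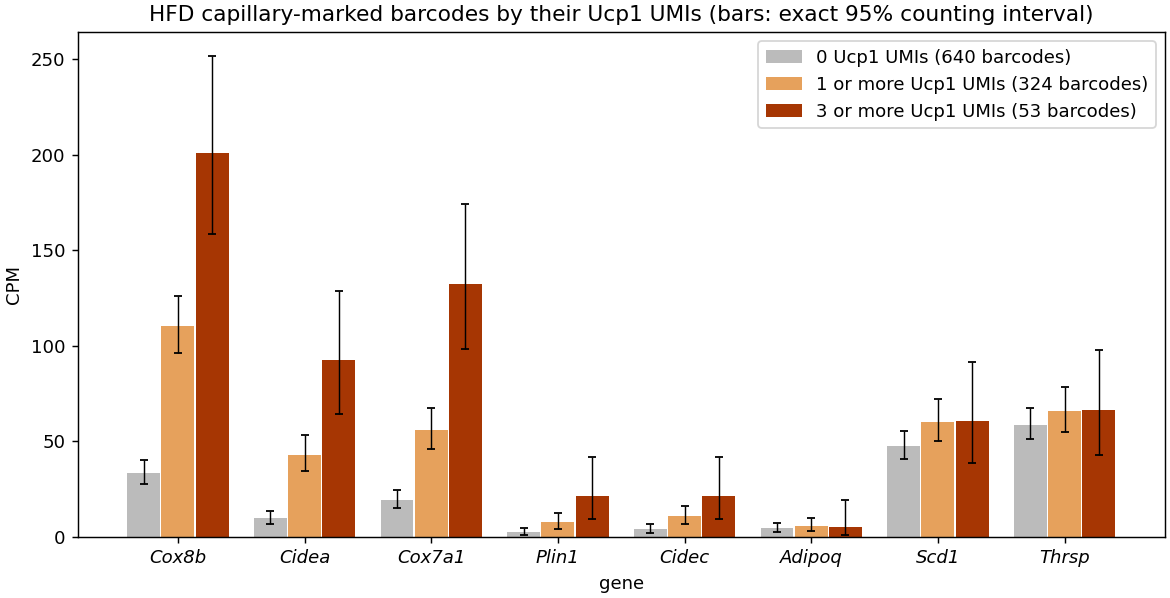
CPM of 8 members in HFD capillary-marked endothelial barcodes with 0, 1 or more, and 3 or more Ucp1 UMIs (640, 324 and 53 barcodes, the third set lying within the second), with exact 95% counting intervals. Cox8b, Cidea and Cox7a1 increase across the sets, while Scd1, Thrsp and Adipoq overlap.

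Scd1 differed from the other members in its level in ND B cells and in fibroblasts. ND B cells had 983 Scd1 UMIs at 502 CPM (471 to 534), with at least 1 in 79.8% of 496 barcodes, and T cells of the same library had 15 UMIs at 18.9 CPM. After thinning to 1000 UMIs, 40.7% of ND B cells and 1.48% of ND T cells had an Scd1 UMI. The ratio was 26.6 (16.0 to 47.7), while the other 9 members together were at 9.18 CPM in ND B cells and 22.6 CPM in T cells. Only 7 HFD B cells were gated, with 4 Scd1 UMIs.

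Fibroblasts had 856 Scd1 UMIs in ND (241 CPM) and 342 in HFD (195 CPM), a log2 ratio of -0.31 (-0.49 to -0.12). The median over all 10604 genes with enough UMIs in that gate was -0.17, inside this interval. Thinned shares were 19.3% and 16.4%. Macrophages had 29 and 140 Scd1 UMIs, at 17.4 and 42.6 CPM, a log2 ratio of 1.29 (0.71 to 1.92), and of the gates compared this was where Scd1 was at least 2-fold higher in HFD. The ND macrophage level lay beside that of ND T cells, 17.4 against 18.9 CPM. Scd1 was thus higher in HFD macrophages, and its fibroblast ratio overlapped that of the median gene within counting error. The direction of Scd1 in adipocyte-gated barcodes turned with the mitochondrial limit.

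The class profile of the summed members was compared with that of every gene holding at least 500 UMIs, by Spearman's rho over 15 class and library points without the adipocyte gate. The 10 most alike were Rubcn, Cxxc5, Hsf1, Zfp318, Ssh1, Pcgf3, 2210016L21Rik, Smu1, Usp16 and Sfrp1, with rho from 0.81 to 0.89. These points share libraries and depth, and Scd1 made up 983 of the 1001 member UMIs in ND B cells and 342 of 380 in HFD fibroblasts.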

How the data were processed

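Aortic arches were dissociated with an enzyme kit, and droplet single-cell libraries were sequenced by the authors on a HiSeq3000. The deposited files hold whole-number UMI counts per gene and barcode, which the authors made with Cell Ranger (3.0.1 per the matrix header), mapped to mm10 per the submitters' processing notes, which also name bcl2fastq, UMI-tools, Seurat 3.2.0 and R 4.0.0. The aggregated tables were not used here.

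A barcode entered with 200 or more genes, 200 or more UMIs and a mitochondrial share no higher than 30%. Marker gates of at least 3 distinct genes were applied, with no clustering. Barcodes reaching 2 or more gates were called mixed and kept apart, and no doublet caller was run. UMIs were summed per gate and library and scaled to CPM. T cells served as the background class. B cells had been planned as background too, but held Scd1 in ND. With 1 library per diet no test was run. Levels carry exact Poisson intervals, shares Clopper-Pearson intervals and ratios exact conditional binomial intervals at 95%, for counting error only, checked on simulated data. A count of 0 was read as allowing 3 UMIs. Genes with at least 20 UMIs over both libraries entered the 2-fold counts. Depth was 27137322 UMIs in ND and 17191279 in HFD.

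The members and gene lists (brown fat, white fat and adipokine, lipolysis and lipid droplet, lipogenesis, paralogs, RNA of other sources) were chosen with earlier results of these data known. The genes named were the 10 members, the 4 highest of each list in ND adipocyte-gated barcodes, members' paralogs, the 10 genes most alike in class profile, and 5 leading genes per gate used. Genes past 2-fold and leading genes of Ucp1 barcodes were also named after their values were seen. Numpy 2.4.6, scipy 1.17.1 and pandas 2.3.3 were used. Promoter windows came from RefSeq (GRCm38.p6). Promoters were not used for the remaining 3 members.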

Additional observations from a re-analysis of the deposited data

Results flagged for a closer look

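Barcodes removed by the filter, mostly for over 30% mitochondrial UMIs, were outside the comparisons above and also held the members. Ucp1 was at 9.17 CPM in the 4818 ND barcodes removed and at 86.0 CPM in the 11486 HFD barcodes removed, above the 3 UMIs that a count of 0 allows. The removed barcodes held 14.5% of all ND Ucp1 UMIs beside 17.3% of all ND UMIs, and 62.5% of HFD Ucp1 UMIs beside 58.4% of all HFD UMIs. The filter took 20 adipocyte-gated barcodes out of the HFD library and 5 out of the ND library, against 8 and 21 kept. Among the 20, Ucp1 had a median of 1.5 UMIs and a highest of 103. The adipocyte-gated counts kept in each diet thus move with the mitochondrial limit.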

How the results depend on the processing

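No paired analysis was possible because each diet had 1 library and no replicate could be left out or blocked. Several values lay outside the counting interval of the reported one. The cause was not tested. With mitochondrial limits of 20%, 50% and none, the members' level in adipocyte-gated barcodes was 36324, 41338 and 41102 CPM in ND and 43952, 24898 and 22221 CPM in HFD. Their share of member UMIs was 37.2% in ND and 35.1% in HFD at 20%, 37.6% in HFD at 50%, and 48.8% and 34.6% with none. The log2 ratio over all kept barcodes was 2.18, 2.99 and 2.97 for Ucp1 and -1.40, -2.19 and -2.35 for Scd1. HFD lymphocytes were at 84.2 CPM at 50% and 113 CPM with none, against 39.9 CPM. Members higher in HFD over all barcodes numbered 2 at 50% and with none. In endothelial barcodes 2 were higher at 20%, and 1 was lower with none.

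With a gate of 2 markers the adipocyte levels were 45568 and 34541 CPM and the shares 43.0% and 34.2%, and with mixed barcodes assigned to their leading class 34182 and 25417 CPM and 80.4% and 41.1%. With all barcodes reaching the adipocyte gate (chosen after seeing the data) they were 17098 and 4643 CPM and 81.5% and 51.1%. A gate of 4 markers kept each value within its interval. Scaled without mitochondrial, haemoglobin and ribosomal genes, adipocyte levels were 60068 and 41520 CPM, endothelial ones 293 and 460 CPM, ND lymphocytes 708 CPM and the Scd1 log2 ratio -2.02.

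Scaled by the median of ratios, the Scd1 log2 ratio was -1.96 and 2 members were higher. As UMIs per barcode, the log2 ratios were 3.01 for Ucp1 and -1.78 for Scd1, with 2 members higher, and Scd1 in endothelial barcodes turned to 0.16. At a fold of 1.5, 2 members were higher over all barcodes and 1 was lower in endothelial ones. Without adipocyte-gated barcodes the log2 ratios were 3.29 for Ucp1 and -0.84 for Scd1, and Cidea (0.52) and Plin1 (1.07) changed sign. Endothelial shares with a member UMI, 51.2% and 66.7%, were 18.7% and 24.8% at 1000 UMIs and 33.9% and 39.5% at 2000. Endothelial levels, 218 and 314 CPM, were 195 and 228 CPM without barcodes with an adipocyte marker and 236 and 332 CPM without the deepest 10% (both chosen after seeing the data). Lymphocytes without Scd1 were at 13.1 and 13.3 CPM, and ND T cells alone at 41.5 CPM, against 375 CPM in ND lymphocytes. Of the 10 genes most alike in profile, 3 were shared with the ND library alone and 0 with the HFD library alone, whose 5 points left many genes tied. The direction of Ucp1 held in the 10 alternatives over all barcodes and the 11 in endothelial ones.

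Within the adipocyte gate, where 2 members were at least 2-fold higher and 0 lower, these numbers were 0 and 4 at a mitochondrial limit of 20%, 3 and 2 at 50% and with none, and 1 and 0 with a gate of 2 markers. They were 1 and 2 by the median of ratios and as UMIs per barcode, 2 and 2 at a fold of 1.5, and 1 and 6 with all barcodes reaching the gate. Over all genes of the gate, 10.2% were higher and 17.8% lower at 20% (1132 genes). These shares were 6.76% and 13.7% at 50% (2975 genes), and 4.81% and 17% with none (3059 genes). For the member counts at the other alternative settings of this section, no share over all genes was computed. At 20% the log2 ratios turned to -1.72 for Cox8b, 0.38 for Scd1 and 0.51 for Thrsp, and those of Ucp1, Cidea and Cox7a1 could not be computed with 0 UMIs in HFD. Plin1 turned to -0.016 as UMIs per barcode, and Cox8b (-0.25) and Plin1 (-1.16) with all barcodes reaching the gate. Ucp1 kept its direction in the 9 alternatives that gave a ratio. The 20% limit was not among these and went the other way, with 23 Ucp1 UMIs in ND against 0 in HFD. There the upper limits of the log2 ratios were 0.05 for Ucp1, -2.46 for Cidea and -0.91 for Cox7a1. A level from few UMIs, as in HFD T cells, is limited by depth.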

Other observations

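Member levels varied with the mitochondrial share of the barcodes. In HFD, Ucp1 was at 38.4 CPM in barcodes of up to 10% mitochondrial UMIs, 47.4 CPM at 10 to 20% and 104 CPM at 20 to 30%. It was at 116 CPM at 30 to 40%, 130 CPM at 40 to 50%, 73.5 CPM at 50 to 60% and 98.2 CPM above 60%. In ND the same bands were at 4.96, 13.8, 16.4, 15.3, 5.03, 20.3 and 10.95 CPM, with 3 to 26 UMIs in each band above 30%. Scd1 in ND was at 643 CPM at 10 to 20%, 2141 CPM at 20 to 30% and 187 CPM at 30 to 40%. These bands held 10, 11 and 2 adipocyte-gated barcodes. Counted alone or with another class, 51, 20 and 4 barcodes reached the adipocyte gate there.

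In mixed barcodes (769 in ND, 555 in HFD) Adipoq was at 74.1 CPM in ND and 9.99 CPM in HFD, and Scd1 at 1102 and 113 CPM, whereas Ucp1 was at 24.7 and 70.8 CPM.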
